A study of Homo sapiens with 12 samples.

Results

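The genes of microRNA processing and of the Argonaute machinery were examined in MDA-MB-231 cells after knockdown of NONO or of PKM2. They are 10 genes chosen by symbol. DROSHA and DGCR8 form the Microprocessor, DICER1 is the second nuclease, AGO1, AGO2, AGO3 and AGO4 are the Argonautes, and TNRC6A, TNRC6B and TNRC6C are the GW182 proteins. All 10 were found by gene identifier in both deposited tables, with 60623 genes listed for the NONO knockdown and 60671 for the PKM2 knockdown, and all 10 had enough counts to be tested. MDA-MB-231 is an established human triple-negative breast cancer (TNBC) cell line. The 12 poly(A)-selected RNA-seq libraries fell into 4 groups of 3, namely NONO knockdown with its own negative control (NC) group, and PKM2 knockdown with its own NC group. The labels give the genotype of both NC groups as WT, and the series design states that siRNA was used. The dose and the time from transfection to RNA collection are not in the labels, nor do they say whether the 3 libraries of a group came from separate cultures, so P values measure the spread between these libraries, which may be technical.

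MicroRNAs begin as hairpins inside longer nuclear transcripts. DROSHA, an RNase III enzyme, cuts the hairpin out of the primary transcript while its RNA-binding partner DGCR8 holds it, and DICER1 cuts off the loop in the cytoplasm. One strand of the resulting duplex is loaded into an Argonaute protein, which finds target mRNAs mainly through the seed at bases 2 to 8 of the microRNA. TNRC6 proteins bind Argonaute through their GW repeats and recruit deadenylases, so that the target is translated less and decays. AGO2 is the human Argonaute best known for slicing fully paired targets. The RNA measured here is poly(A) RNA, so mature microRNAs themselves were not measured.

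Libraries held 19861762 to 20981712 estimated counts in the NONO experiment, and PKM2 libraries held 24097948 to 28455268. NONO, a paraspeckle and RNA-binding protein, changed by a log2 fold change of -2.57 (SE 0.05) after NONO knockdown and 0.30 (SE 0.04) after PKM2 knockdown. PKM, the gene of pyruvate kinase M and of its PKM2 isoform, changed by -3.32 (SE 0.05) after PKM2 knockdown and 0.26 (SE 0.03) after NONO knockdown. Markers of this mesenchymal line were present in all 12 libraries, with VIM between 3291.25 and 4466.33 TPM, a level scaled to gene length and library total, while the 6 markers listed as low were not uniformly so. ESR1, PGR and the epithelial CDH1 did not exceed 0.41 TPM, EPCAM was at 1.29 to 3.73 TPM, GATA3 at 1.33 to 4.37 TPM and ERBB2, the gene of HER2, at 13.68 to 35.22 TPM. Of the 3 of these that were tested, 1 fell after NONO knockdown and 3 after PKM2 knockdown, and their part in the results was not tested. NC replicate 1 of the NONO experiment and replicate 3 of the PKM2 knockdown stood apart from their replicates, and calls or directions of the 10 genes that change without them are given beside their values.

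Per unit of length, DROSHA was the most abundant of the 10 transcripts in both NC groups and TNRC6C the least abundant. In the NONO experiment, mean NC TPM ran from 49.1 for DROSHA through 35.7 for TNRC6A, 30.5 for AGO2, 23.3 for DICER1 and 22.3 for DGCR8 to 7.42 for AGO3, 5.55 for TNRC6B, 5.35 for AGO4, 4.57 for AGO1 and 1.75 for TNRC6C (n = 3). Libraries of neighbouring genes overlapped for TNRC6A and AGO2, for DICER1 and DGCR8, for TNRC6B and AGO4, and for AGO4 and AGO1, so these pairs have no resolved order there. The NC group of the PKM2 experiment gave the same first 6 genes in the same order, with DROSHA at 53.4 TPM and TNRC6C at 2.94 TPM. There DICER1 (22.3 TPM) and DGCR8 (22.2 TPM) again overlapped, as did AGO4 (3.71 TPM) and TNRC6C. After NONO knockdown DROSHA remained the highest, at 55.1 TPM, and AGO2 (30.8 TPM) and TNRC6A (29.4 TPM) overlapped in second place. After PKM2 knockdown the highest mean was that of AGO2 (33.7 TPM), followed by DGCR8 (27.5 TPM), TNRC6A (25.1 TPM) and DROSHA (23.5 TPM), and the libraries of each overlapped those of the next.

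The 2 subunits of the Microprocessor moved in opposite directions after PKM2 knockdown, so the sequences upstream of both genes are shown. DROSHA (ENSG00000113360) lies on the minus strand of chromosome 5 from 31400497 to 31532196, and DGCR8 (ENSG00000128191) on the plus strand of chromosome 22 from 20080232 to 20111877 (GRCh38, GENCODE 29). The lines give, 5′ to 3′ from RefSeq on GRCh38.p14, the stretch before each annotated gene, chr5:31532197-31532343 on the minus strand and chr22:20079991-20080231 on the plus strand. Capitals mark GC boxes (GGGCGG) and CCAAT boxes (CCAAT), found on either strand.
DROSHA upstream: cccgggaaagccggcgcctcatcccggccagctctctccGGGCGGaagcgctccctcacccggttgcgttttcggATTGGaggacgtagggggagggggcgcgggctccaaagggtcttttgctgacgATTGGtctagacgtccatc
DGCR8 upstream: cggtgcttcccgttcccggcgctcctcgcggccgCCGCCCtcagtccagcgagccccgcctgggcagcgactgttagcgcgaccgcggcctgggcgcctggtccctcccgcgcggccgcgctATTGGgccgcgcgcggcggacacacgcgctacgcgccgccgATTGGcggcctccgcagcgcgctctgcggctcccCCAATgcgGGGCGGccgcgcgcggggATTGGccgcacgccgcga
Over the whole windows of 250 bases before the RefSeq start, DROSHA held 1 GC box and 3 CCAAT boxes, and DGCR8 held 2 and 4. Of 34786 RefSeq windows of this length, 42.6% held a GC box and 32.0% a CCAAT box. Neither window held the E-box CACGTG (6.31% of windows), TATAAA (10.8%), the cAMP response element TGACGTCA (1.64%) or the NRF1 core motif (1.02%). No motif searched contains another, and a match is a description of the letters only.

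DROSHA fell after PKM2 knockdown to 0.37 of its control level by counts, the largest change among the 10 genes in that experiment. Its CPM values (counts scaled to library size by TMM, with no length correction) were 98.1, 97.3 and 95.8 in the NC libraries and 37.8, 37.8 and 32.4 after PKM2 knockdown. All 3 knockdown libraries lay far below all 3 NC libraries, and the libraries of each group lay close together. The log2 fold change was -1.43 (SE 0.07, edgeR quasi-likelihood test, adjusted P = 4.70e-09), and leaving out any 1 library kept it between -1.46 and -1.35. In TPM, DROSHA was at 58.15, 51.82 and 50.33 in NC and at 24.72, 26.86 and 18.78 after knockdown. These poly(A) libraries are of whole cultures, so fewer cells with a transcript and less of it per cell cannot be told apart. After NONO knockdown DROSHA was at 124, 124 and 128 CPM, against 117, 109 and 114 CPM in NC. The groups did not overlap, but the difference was small, with a log2 fold change of 0.14 (SE 0.04, adjusted P = 0.0289, edgeR). That call was lost (adjusted P up to 0.121) without any 1 of 5 of the 6 libraries, all but NC replicate 1, and with the replicate numbers as a block (adjusted P = 0.0597).

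DGCR8, the partner of DROSHA, rose after PKM2 knockdown. It was at 49.8, 53.3 and 54.8 CPM in NC and at 77.7, 80.5 and 80.2 CPM after PKM2 knockdown. Every knockdown library lay above every NC library, with a log2 fold change of 0.60 (SE 0.06, adjusted P = 1.63e-06, edgeR), and taking out the trend with gene length and GC content gave 0.76. In TPM the rise was smaller, from a mean of 22.2 to 27.5 (log2 ratio 0.31), and the groups did not overlap. In the NONO experiment the groups overlapped, with 61.6, 54.6 and 55.9 CPM in NC and 57.3, 64.4 and 60.3 CPM after knockdown, and the log2 fold change of 0.08 (SE 0.06) did not pass the test (adjusted P = 0.369, edgeR). It passed without NC replicate 1, which stood apart, at 0.14 (adjusted P = 0.0429). The DGCR8 mRNA carries 2 annotated microRNA hairpins in its exons, MIR1306 and MIR3618, and the Microprocessor is known to cut hairpins in this mRNA. One of them gives the following mature microRNA, which lies on chr22:20085797-20085818 (plus strand, RefSeq on GRCh38.p14) and is shown with its seed in capitals.
hsa-miR-3618: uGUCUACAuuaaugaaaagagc
DGCR8 also shares 526 exon bases with an antisense gene, AC006547.2, which had 0 counts in every library here.

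The balance between both subunits was therefore different after PKM2 knockdown. The ratio of DROSHA to DGCR8 in TPM was 2.77, 2.19 and 2.30 in the NC libraries and 0.869, 0.959 and 0.721 after PKM2 knockdown, so DROSHA went from the more abundant transcript to the less abundant in every library. The ratio was 2.42 ± 0.308 in NC and 0.85 ± 0.12 after knockdown (mean ± SD, n = 3). The same ratio taken on estimated counts, with no length correction, was 1.85 ± 0.114 and 0.453 ± 0.0432. In the NONO experiment it was 2.25, 2.23 and 2.13 in NC and 2.54, 2.13 and 2.94 after knockdown, and these groups overlapped.

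**Figure D1:**
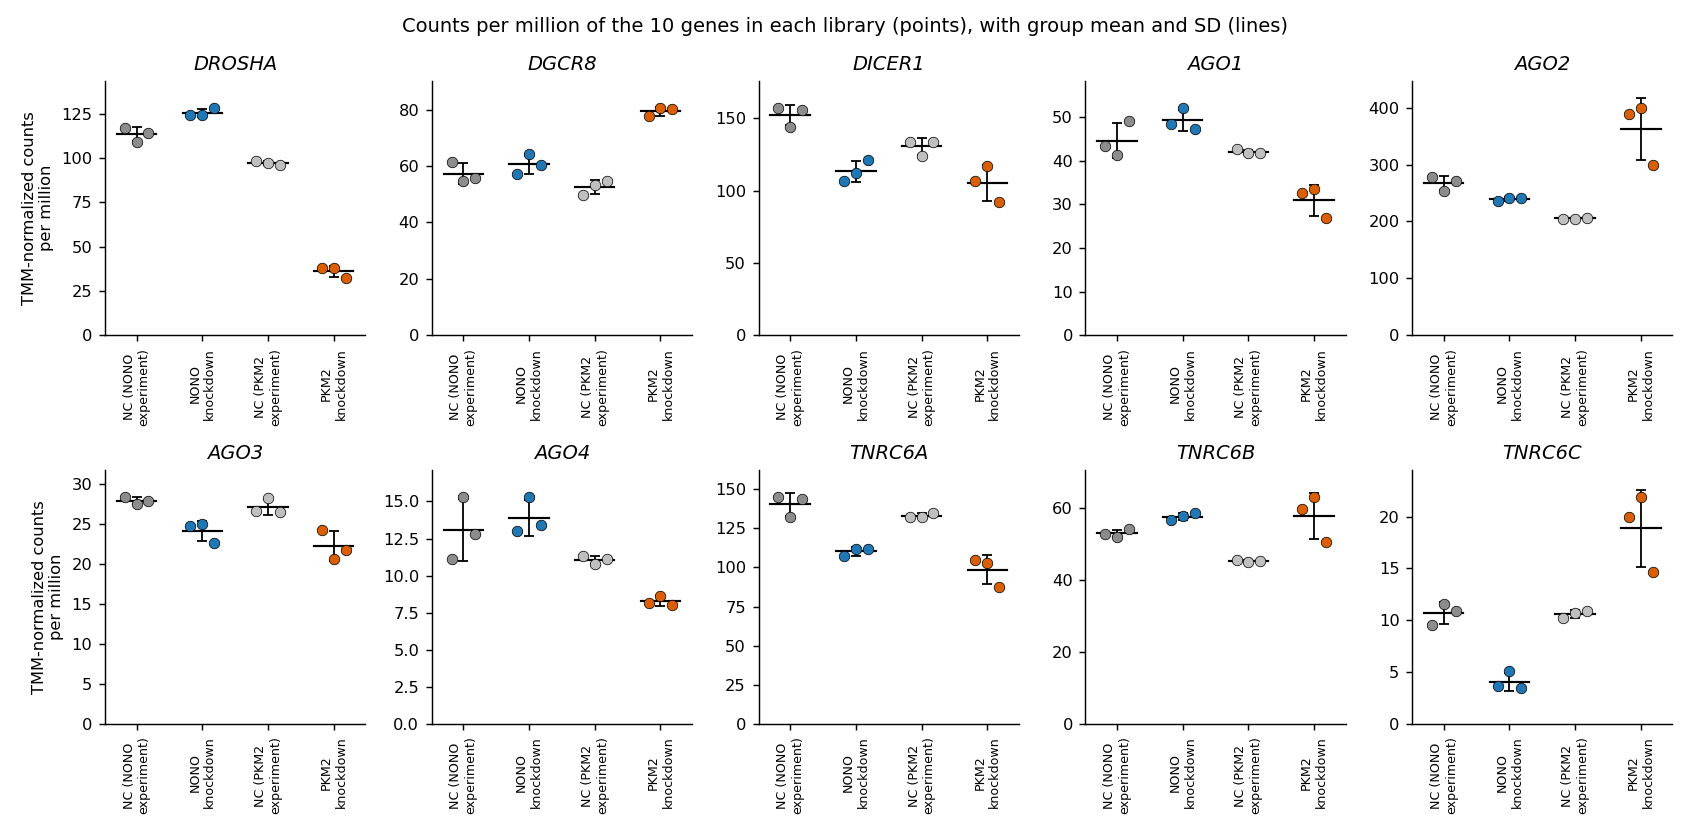
TMM-normalized CPM (vertical axis, starting at 0, a separate scale for each gene) of the 10 genes in each library (points) of the 4 groups, with group mean and SD (lines, n = 3). DROSHA drops from 95.8 or more to 37.8 or less after PKM2 knockdown. TNRC6C lies below NC after NONO knockdown and above NC after PKM2 knockdown. The third PKM2 knockdown library is the lowest of its group for every gene but DGCR8 and AGO3.

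DICER1, which makes the mature duplex, fell in both knockdowns. The gene (ENSG00000100697) lies on the minus strand of chromosome 14 from 95086228 to 95158010. It was at 157, 144 and 156 CPM in the NC libraries of the NONO experiment and at 107, 112 and 121 CPM after NONO knockdown. It was at 134, 124 and 134 CPM in the NC libraries of the PKM2 experiment and at 107, 117 and 91.9 CPM after PKM2 knockdown. In both experiments all knockdown libraries lay below all NC libraries. The log2 fold change was -0.43 (SE 0.05, adjusted P = 0.000154, edgeR) after NONO knockdown and -0.31 (SE 0.08, adjusted P = 0.00356, edgeR) after PKM2 knockdown. Without PKM2 knockdown replicate 3, the lowest library, the second value was -0.22 (adjusted P = 0.00195), and it was -0.19 with the trend in gene length taken out and -0.34 with the trends in length and GC content taken out. The fall after NONO knockdown did not pass the test on TPM (-0.36, adjusted P = 0.0632, limma). The change of DICER1 was not shown to differ between the knockdowns (difference 0.11, SE 0.10, adjusted P = 0.419, edgeR interaction).

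Among the Argonautes, AGO2 rose after PKM2 knockdown while AGO1, AGO3 and AGO4 fell. AGO2 (ENSG00000123908) lies on the minus strand of chromosome 8 from 140520156 to 140635619. AGO4 (ENSG00000134698, 35808172 to 35857890), AGO1 (ENSG00000092847, 35869808 to 35930528) and AGO3 (ENSG00000126070, 35930718 to 36072500) lie next to each other on the plus strand of chromosome 1. AGO2 was at 205, 205 and 207 CPM in NC and at 389, 399 and 300 CPM after PKM2 knockdown. All 3 knockdown libraries were above NC, the third clearly less so than the other two. The log2 fold change was 0.82 (SE 0.09, adjusted P = 5.77e-06, edgeR), and it was 0.94 without that library.

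The 3 clustered Argonaute genes were each lower in every PKM2 knockdown library than in every NC library by CPM. AGO1 was at 42.6, 41.8 and 41.7 CPM in NC and at 32.6, 33.4 and 26.8 CPM after knockdown (log2 fold change -0.44, SE 0.08, adjusted P = 0.000387, edgeR). AGO3 was at 26.7, 28.3 and 26.5 CPM in NC and at 24.3, 20.6 and 21.8 CPM after knockdown (-0.29, SE 0.08, adjusted P = 0.00513, edgeR). AGO4 was at 11.3, 10.8 and 11.1 CPM in NC and at 8.16, 8.64 and 8.01 CPM after knockdown (-0.43, SE 0.10, adjusted P = 0.00181, edgeR). By counts the 3 falls were of like size, to 0.74 of NC for AGO1 and AGO4 and 0.82 for AGO3. By mean TPM they were not, with log2 ratios of -1.0 for AGO4, -0.45 for AGO1 and -0.44 for AGO3. The AGO3 groups overlapped in TPM, and the implied AGO4 length (count over TPM) was 5530 bases in NC and 7540 after knockdown. AGO3 had the smallest gap between its groups, and it was at -0.17 with the length trend taken out and at -0.32 with the length and GC trends taken out.

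After NONO knockdown, the Argonautes moved little by counts. AGO2 was at 278, 254 and 271 CPM in NC and at 236, 242 and 241 CPM after knockdown (log2 fold change -0.16, SE 0.04, adjusted P = 0.0183, edgeR). AGO3 was at 28.4, 27.5 and 27.9 CPM in NC and at 24.8, 25.0 and 22.7 CPM after knockdown (-0.21, SE 0.07, adjusted P = 0.0394, edgeR). Both groups of both genes were separate, but both calls rest on small differences. The AGO2 call was lost without NC replicate 3 or any 1 knockdown library (adjusted P up to 0.0851), and on TPM its direction turned (0.01, limma). The AGO3 call was lost without any library but NC replicate 1 (adjusted P up to 0.155), with the replicate block (0.0676) and with DESeq2 (0.11). AGO1 was at 43.4, 41.4 and 49.0 CPM in NC and 48.5, 52.0 and 47.2 CPM after knockdown, and did not pass (0.14, SE 0.07, adjusted P = 0.154, edgeR), except without NC replicate 3 (0.22, adjusted P = 0.0397).

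AGO4 differed between counts and TPM in the NONO experiment. Its counts overlapped, with 11.1, 15.3 and 12.8 CPM in NC and 13, 15.3 and 13.4 CPM after NONO knockdown, and the log2 fold change was 0.08 (SE 0.12, adjusted P = 0.649, edgeR), or -0.01 without NC replicate 1. In TPM it was at 3.51, 4.70 and 7.84 in NC and at 2.48, 2.74 and 2.42 after knockdown, with no overlap. TPM divides a count by a transcript length, which programs such as RSEM estimate anew in each library. The length implied by the ratio of count to TPM, scaled so that the median gene has its deposited length, was 5640, 5840 and 2950 bases in NC and 9030, 9560 and 9580 bases after knockdown. Both units also parted for AGO2 in the PKM2 experiment, where TPM was 27.06, 26.07 and 26.07 in NC and 37.52, 38.16 and 25.44 after knockdown, so that the third knockdown library was the lowest of all 6. The implied AGO2 length there was 13600 to 14500 bases in NC and 17700 to 18800 bases after knockdown. Which isoforms the reads came from was not tested, and on TPM the AGO2 rise did not pass (limma, 0.32, adjusted P = 0.10).

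**Figure D2:**
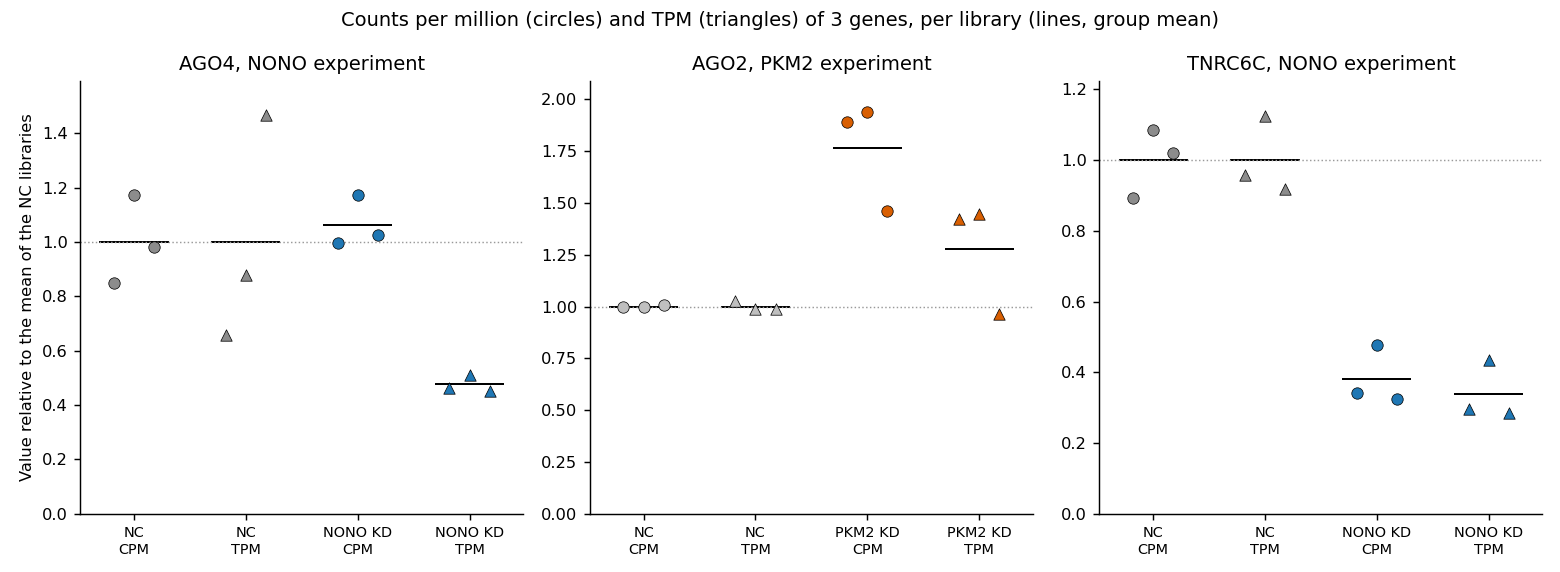
CPM (circles) and TPM (triangles) of AGO4 and TNRC6C in the NONO experiment and AGO2 in the PKM2 experiment, each divided by the mean of its NC libraries (vertical axis, from 0; points, libraries; lines, group means). AGO4 stays near 1 in counts but is lower in TPM after NONO knockdown (mean 2.55 against 5.35 TPM), the AGO2 rise is smaller in TPM, and TNRC6C is low in both units.

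By TPM, AGO2 made up most of the Argonaute transcripts in every library. Its share of the summed AGO1 to AGO4 TPM was 61.9%, 61.9% and 62.2% in the NC libraries of the PKM2 experiment and 75.3%, 77.8% and 71.9% after PKM2 knockdown. The shares of AGO1 (13.2% to 9.24%), AGO3 (16.1% to 11.5%) and AGO4 (8.71% to 4.20%) were lower by group mean, with AGO3 libraries closest. The summed Argonaute TPM itself was 42.6 ± 0.972 in NC and 44.7 ± 8.10 after PKM2 knockdown (SD, n = 3), and these overlapped. In the NONO experiment the AGO2 share was 63.8% ± 5.75 in NC and 67.2% ± 2.53 after knockdown, also with overlap.

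The GW182 genes differed from each other in both experiments, and TNRC6C moved the most. TNRC6C (ENSG00000078687) lies on the plus strand of chromosome 17 from 77959240 to 78108835. The window before its RefSeq start, chr17:77958453-77958702 (plus strand, GRCh38.p14), is shown because the gene moved in opposite directions in the 2 experiments. Capitals mark GC boxes, CCAAT boxes and the E-box CACGTG.
TNRC6C upstream: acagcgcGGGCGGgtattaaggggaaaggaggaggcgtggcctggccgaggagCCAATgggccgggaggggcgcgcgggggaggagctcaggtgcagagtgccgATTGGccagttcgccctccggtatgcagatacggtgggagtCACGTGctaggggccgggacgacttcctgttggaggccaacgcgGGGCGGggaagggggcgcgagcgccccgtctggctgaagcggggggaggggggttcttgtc
The window held 2 GC boxes, 2 CCAAT boxes and 1 E-box, the latter found in 6.31% of all windows.

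TNRC6C fell after NONO knockdown to 0.38 of its control level and rose after PKM2 knockdown to 1.78 times its control level. It was at 9.54, 11.6 and 10.9 CPM in NC and at 3.64, 5.09 and 3.46 CPM after NONO knockdown. It was at 10.2, 10.7 and 10.9 CPM in the other NC group and at 20, 21.9 and 14.7 CPM after PKM2 knockdown. In CPM both NC groups were close to each other. The knockdown libraries lay wholly below their NC group in one experiment and wholly above it in the other. In TPM the NC groups were apart, at 1.68, 1.97 and 1.61 in the NONO experiment and 3.30, 2.83 and 2.69 in the PKM2 experiment. A shared control level is therefore not shown. The log2 fold change was -1.40 (SE 0.16, adjusted P = 7.43e-05, edgeR) after NONO knockdown and 0.83 (SE 0.13, adjusted P = 0.000132, edgeR) after PKM2 knockdown. These rest on few reads, 67.64 to 100.22 estimated counts per NONO knockdown library.

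TNRC6C shares 1438 exon bases with TNRC6C-AS1, a gene on the opposite strand, and the kit and counting are not stated to keep strand, so reads there cannot be assigned with certainty. TNRC6C-AS1 had 168.69, 175.70 and 204.12 estimated counts in the NC libraries and 208.74, 161.14 and 176.63 after NONO knockdown, and did not pass the test (log2 fold change 0.06, SE 0.12, adjusted P = 0.736, edgeR). In the PKM2 experiment it had 48.50, 63.00 and 79.45 counts in NC and 41.38, 0 and 54.10 after knockdown (-0.83, SE 0.64, adjusted P = 0.271, edgeR). With both genes summed, an analysis chosen after seeing the data, the direction was kept but the size was smaller. The sum changed by -0.56 (SE 0.09, adjusted P = 0.000738, edgeR) after NONO knockdown and by 0.64 (SE 0.11, adjusted P = 0.000259, edgeR) after PKM2 knockdown.

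TNRC6A, the most abundant of the 3 by TPM, fell in both experiments. It (ENSG00000090905, chromosome 16, 24610209 to 24827632, plus strand) was at 145, 132 and 144 CPM in NC and 107, 112 and 112 CPM after NONO knockdown. It was at 132, 132 and 135 CPM in NC and 105, 103 and 87.7 CPM after PKM2 knockdown. The groups were separate both times, with a log2 fold change of -0.35 (SE 0.05, adjusted P = 0.000304, edgeR) and of -0.43 (SE 0.07, adjusted P = 0.000114, edgeR). TNRC6B (ENSG00000100354, chromosome 22, 40044817 to 40335808, plus strand) went the other way after PKM2 knockdown, from 45.4, 44.9 and 45.2 CPM in NC to 59.7, 63.0 and 50.5 CPM (0.35, SE 0.08, adjusted P = 0.0015, edgeR). After NONO knockdown it was at 56.5, 57.6 and 58.5 CPM against 52.8, 51.8 and 54.0 CPM in NC. These groups did not overlap either, yet the difference of 0.12 (SE 0.05) did not pass the adjusted test (adjusted P = 0.0847, edgeR).

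The make-up of the GW182 transcripts shifted accordingly after PKM2 knockdown. TNRC6A held 80.6%, 82.0% and 82.3% of their summed TPM in the NC libraries and 67.5%, 67.4% and 70.5% after knockdown, while TNRC6B went from 11.7% to 18.5% and TNRC6C from 6.65% to 13% by group mean. After NONO knockdown TNRC6B held 17.9% ± 1.21 against 12.9% ± 0.213 in NC, and TNRC6C held 1.63% ± 0.437 against 4.10% ± 0.641 (SD, n = 3). TNRC6B and TNRC6C shares did not overlap between groups in either experiment. The summed GW182 TPM was lower after both knockdowns, 36.5 ± 1.94 against 43.0 ± 2.49 in the NONO experiment and 36.8 ± 4.50 against 44.2 ± 1.24 in the PKM2 experiment.

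**Figure D3:**
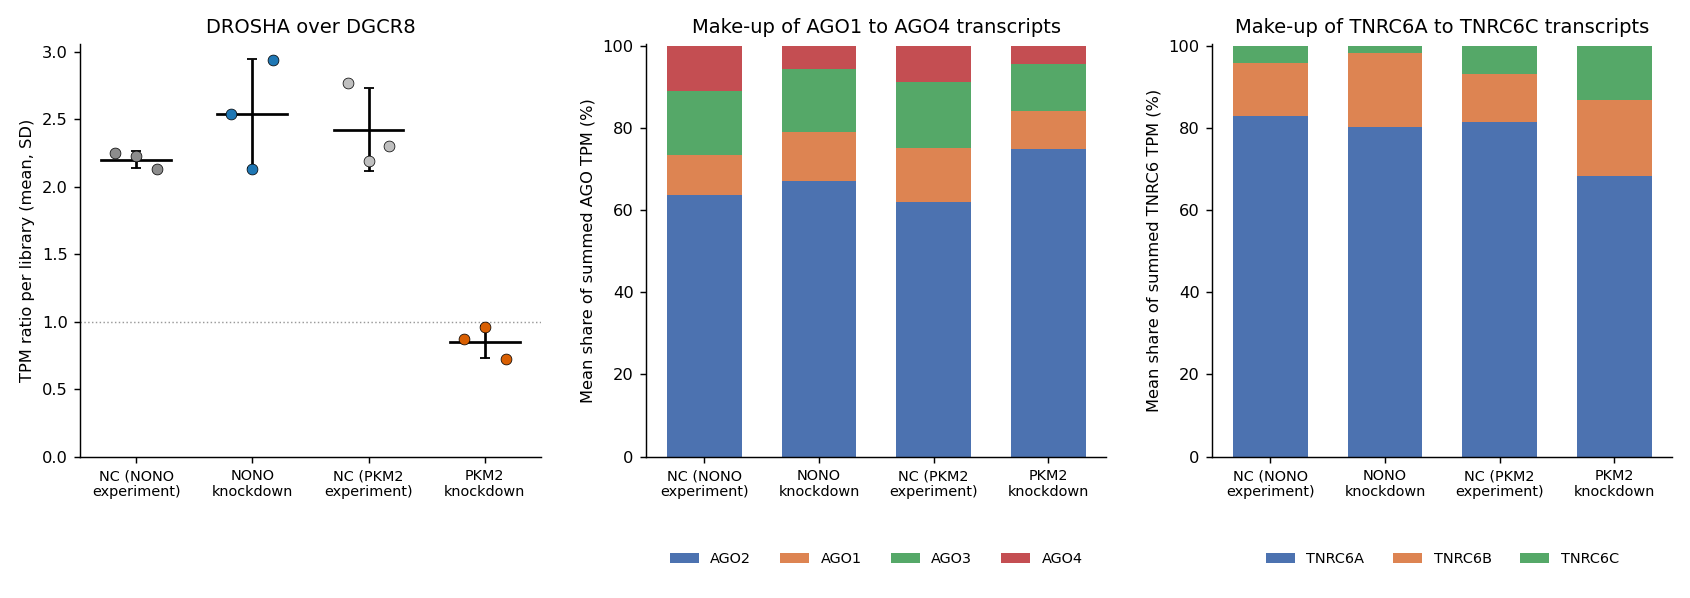
Left, ratio of DROSHA to DGCR8 TPM in each library (points) with mean and SD (n = 3). Middle and right, mean share in percent of the summed TPM held by each Argonaute and each GW182 gene in the 4 groups. After PKM2 knockdown the DROSHA to DGCR8 ratio is below 1 in all 3 libraries, the AGO2 share is 75.0% and the TNRC6A share is 68.4%.

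Counted together, 6 of the 10 genes were called at an adjusted P below 0.05 after NONO knockdown, where 33.4% of all 14832 genes tested were called. DROSHA rose (16.2% of all genes rose), and DICER1, AGO2, AGO3, TNRC6A and TNRC6C fell (17.2% fell), while DGCR8, AGO1, AGO4 and TNRC6B did not pass. By CPM, 2 genes lay wholly above NC (22.6% of all genes did) and 5 wholly below (23.5%), and 46.1% of all genes did not overlap. By the cutoffs of the study, more than 2-fold with P under 0.05 before adjustment, TNRC6C was the only differentially expressed gene (DEG) among the 10, against 2.95% of all genes (0.789% raised and 2.16% lowered). Here and below these cutoffs were applied to the edgeR fits of counts. The paper calculated expression as TPM, so its own DEGs may differ. The median log2 fold change of the 10 was -0.04, and that of all genes tested was -0.01.

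After PKM2 knockdown all 10 genes were called, where 68.4% of 15524 genes were. DGCR8, AGO2, TNRC6B and TNRC6C rose (33.6% of all genes rose) and the other 6 fell (34.7% fell). In CPM 4 lay wholly above NC (35.0% of all genes did) and 6 wholly below (36.9%), where 71.9% of all genes did not overlap. DROSHA was the only DEG among them, against 20.8% of all genes (7.05% raised and 13.8% lowered), so the changes were frequent but mostly under 2-fold. Their median log2 fold change was -0.30, against -0.01 over all genes. The 10 genes are long, 4506 to 19660 bases in the deposited tables, against a median of 2876 bases over the genes tested in this experiment. With the trend in length and GC content taken out, each of the 10 kept its direction in both experiments.

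By counts, the 2 knockdowns affected 6 of the 10 genes differently. Of 15995 genes, 53.1% passed the same interaction test (25.7% higher and 27.4% lower after PKM2 knockdown). The log2 fold change after PKM2 knockdown was lower than that after NONO knockdown for DROSHA (difference -1.59, SE 0.08, adjusted P = 7.08e-11), AGO1 (-0.60, SE 0.11, adjusted P = 0.000239) and AGO4 (-0.52, SE 0.16, adjusted P = 0.00956). It was higher for TNRC6C (2.22, SE 0.22, adjusted P = 1.92e-07), AGO2 (0.96, SE 0.11, adjusted P = 1.09e-06) and DGCR8 (0.50, SE 0.09, adjusted P = 0.000109), all by edgeR. By mean TPM, AGO4 was lower after both knockdowns, with log2 ratios of -1.07 (NONO) and -1.0 (PKM2), and its difference was not tested on TPM. DICER1, AGO3 and TNRC6A were called lower in both experiments and their difference did not pass, which does not show that they responded alike. TNRC6B did not pass either (0.22, SE 0.09, adjusted P = 0.0625), but it did without PKM2 knockdown replicate 3 (0.31, adjusted P = 0.00113). Of the 6 genes called in both experiments, 3 moved the same way and 3, DROSHA, AGO2 and TNRC6C, moved in opposite directions. Of 14525 genes tested in both, 27.2% were called in both, 19.3% in the same direction and 7.97% in opposite directions. The NONO calls of DROSHA, lost in 5 of 6 leave-outs and with the replicate block, and of AGO2, whose direction turned on TPM, are weak, so TNRC6C is the 1 of the 3 that kept its call in every leave-out. Each knockdown was set against its own NC group, and the experiments share no library.

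**Figure D4:**
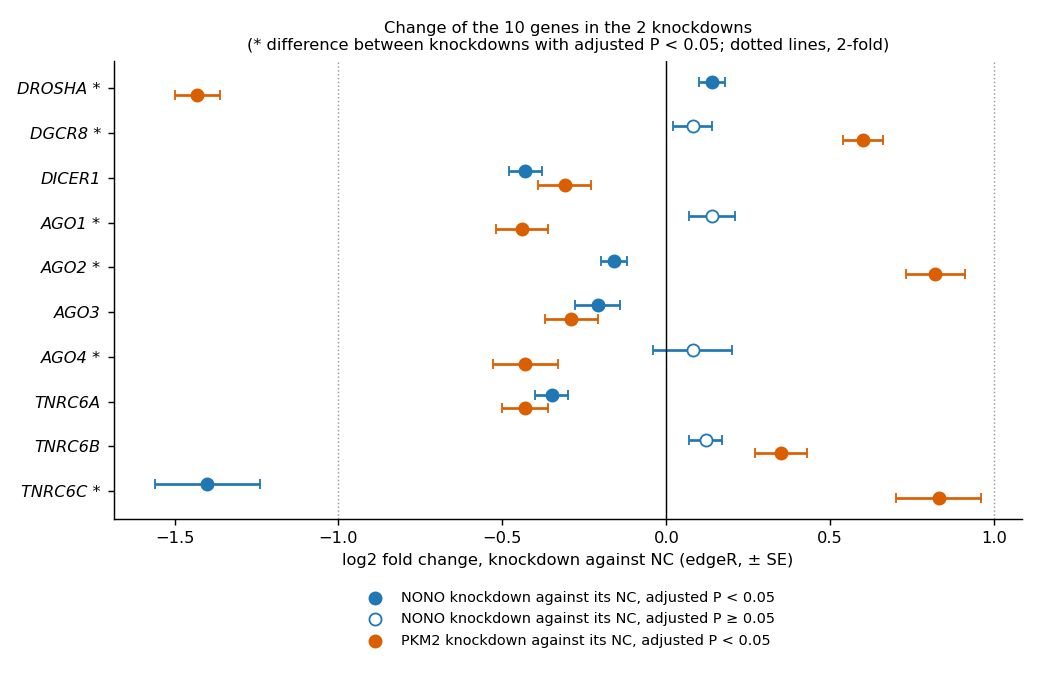
Log2 fold change of each of the 10 genes (horizontal axis, edgeR, points with SE as bars) after NONO knockdown and PKM2 knockdown against the respective NC group, n = 3 libraries a group. Filled points passed an adjusted P below 0.05, dotted lines mark a 2-fold change and asterisks mark the 6 genes whose change differed between knockdowns. DROSHA and TNRC6C lie farthest apart.

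The genes that work with these 10 were examined as 5 lists of 88 genes, of which 81 were tested. After NONO knockdown 27 rose, 8 fell and 46 did not pass, and none was a DEG (2.95% of all genes were), while 0 to 1 of them were with 1 library left out. After PKM2 knockdown 35 rose, 30 fell and 16 did not pass, and 8 were DEGs, PIWIL2 included (20.8% of all genes were). The called share was 43.2% after NONO knockdown, against 33.4% of all genes tested, and 80.2% after PKM2 knockdown, against 68.4%. Over all genes 16.2% rose and 17.2% fell after NONO knockdown, and 33.6% rose and 34.7% fell after PKM2 knockdown, which is the background for the counts of each list. Without NC replicate 1 of the NONO experiment, 37 listed genes rose and 10 fell. Median log2 fold changes over the 81 genes were 0.07 and 0.04. Genes of these lists that are said to have risen or fallen passed an adjusted P below 0.05 in edgeR, and the values beside them are log2 fold changes.

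Among 16 tested genes of primary microRNA processing and export, 5 rose and 3 fell after NONO knockdown (50.0% called, against 33.4% of all genes). HNRNPA1, an RNA-binding protein that helps process some primary microRNAs, had a log2 fold change of 0.38 (SE 0.04), and KHSRP, another such factor, 0.27 (SE 0.05). The RNA-editing enzymes ADAR (-0.28, SE 0.05) and ADARB1 (-0.27, SE 0.07) fell. After PKM2 knockdown 6 rose and 7 fell (81.2% called, against 68.4%). KHSRP (0.47, SE 0.05) and the helicase DDX5, a Microprocessor cofactor (0.36, SE 0.04), rose the most. METTL3, the RNA methyltransferase (-0.87, SE 0.06), and the RNase ZC3H12A (-0.63, SE 0.10) fell the most.

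Among the 19 Dicer partners and Argonaute loading factors, 7 rose and 1 fell after NONO knockdown, where 16.2% of all genes rose and 17.2% fell. The rises were led by the chaperone HSP90AA1 (0.35, SE 0.05) and its cofactor AHSA1 (0.33, SE 0.05). The helicase MOV10, an Argonaute-associated protein, was the single gene of this list to fall (-0.37, SE 0.06). After PKM2 knockdown 13 rose and 4 fell, where 33.6% of all genes rose and 34.7% fell. HSPA4 (0.88, SE 0.04) and the Dicer partner TARBP2 (0.56, SE 0.09) rose the most, and MOV10 (-0.66, SE 0.07) and the cochaperone FKBP5 (-0.60, SE 0.06) fell the most. MOV10 was at 24.53, 23.36 and 27.33 TPM in NC and 18.31, 16.80 and 16.78 TPM after PKM2 knockdown.

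Of the 30 genes of deadenylation, decapping and repression, the effectors that TNRC6 proteins recruit, 12 rose and 13 fell after PKM2 knockdown (83.3% called, against 68.4% of all genes). The 6 DEGs among the 30 are a share close to the 20.8% of all genes that were DEGs. CNOT1, the scaffold of the CCR4-NOT deadenylase, was at 246.44, 238.78 and 244.65 TPM in NC and 122.51, 108.15 and 103.52 TPM after knockdown (-1.14, SE 0.07). CNOT6, a nuclease of the same complex, fell by 1.26 on the log2 scale (SE 0.06). Among decapping genes, the catalytic DCP2 rose (1.22, SE 0.07), while its cofactors DCP1A (-1.07, SE 0.08) and DCP1B (-1.28, SE 0.21) fell. DCP2 was at 16.70, 17.68 and 13.20 TPM in NC and 25.90, 26.70 and 21.22 TPM after knockdown, without overlap. WTIP, of the Ajuba LIM family, also fell (-1.01, SE 0.18). After NONO knockdown 10 rose and 3 fell (43.3% called, against 33.4%), led by the decapping enhancer EDC3 (0.53, SE 0.08) and the cap-binding EIF4E2 (0.47, SE 0.07), with AJUBA (-0.24, SE 0.05) and CNOT3 (-0.22, SE 0.05) lowest. The EIF4E2 rise is in counts, since its TPM was 71.68, 69.14 and 65.74 in NC and 56.97, 57.80 and 81.97 after NONO knockdown, with overlap and a lower mean.

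Of the 15 tested genes of microRNA and Argonaute turnover, 5 rose and 1 fell after NONO knockdown, where 33.4% of all genes were called. ZSWIM8, the ubiquitin ligase adaptor of target-directed microRNA decay, fell in both experiments, with a log2 fold change of -0.64 (SE 0.05) in each. With the length and GC trend taken out, the value after PKM2 knockdown was -0.35. ANKRD52, a subunit of the phosphatase that acts on Argonaute, rose after NONO knockdown (0.43, SE 0.06) and after PKM2 knockdown (0.79, SE 0.07). The exonuclease PARN also rose after NONO knockdown (0.36, SE 0.06). After PKM2 knockdown 3 rose and 6 fell, a called share of 60.0% that is below the 68.4% of all genes, among them the phosphatase PPP6C (0.36, SE 0.04), the uridylyltransferase TUT4 (-0.85, SE 0.07) and FAM120A (-1.24, SE 0.05), a DEG and an Argonaute-associated RNA-binding protein. Of the 4 PIWI genes, the germline relatives of the Argonautes, 1 was tested in each experiment. PIWIL2 met the DEG cutoffs after PKM2 knockdown at very low levels, 0.07, 0.08 and 0.11 TPM in NC and 0.84, 0.45 and 0.70 TPM after knockdown, with at most 34 counts in a library. It passed the count filter only through the knockdown group, where it was high (1.04 CPM, against 0.218 CPM in NC), so its call is no support for a change. PIWIL4, named because it was the 1 PIWI gene tested there, likewise entered through the knockdown group (0.572 CPM, against 0.302 CPM in NC) and did not pass after NONO knockdown (0.90, SE 0.43, adjusted P = 0.138, edgeR).

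**Figure D5:**
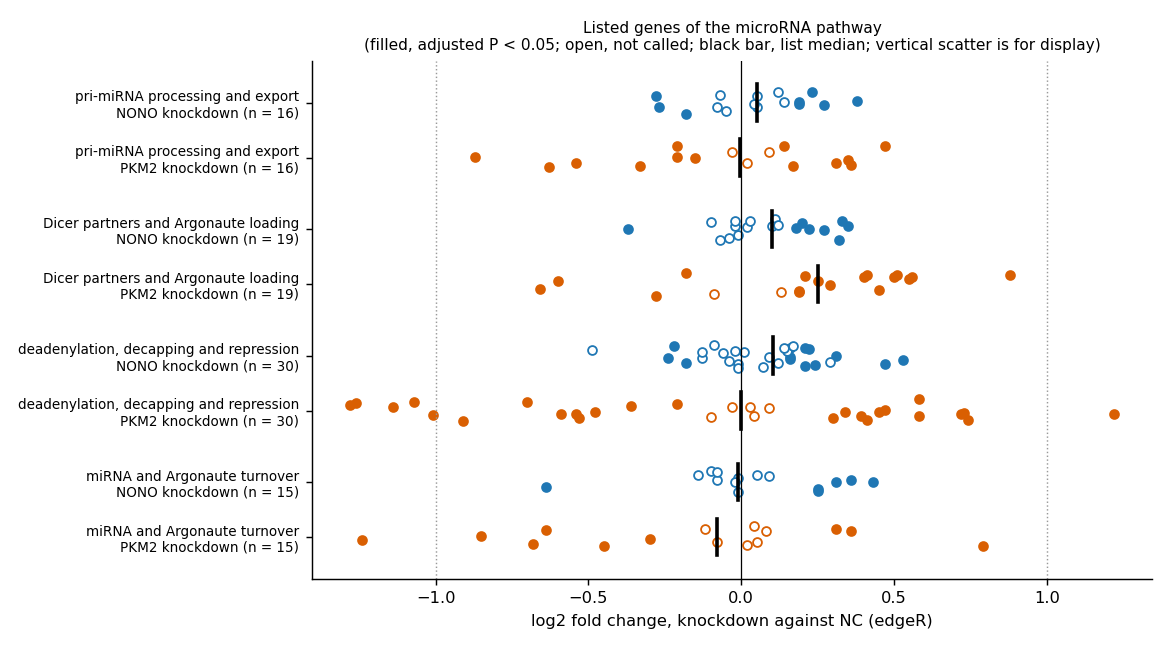
Log2 fold change (horizontal axis, edgeR, knockdown against NC) of each tested gene of 4 lists, n = 16, 19, 30 and 15 genes, after NONO knockdown and after PKM2 knockdown. Filled points passed an adjusted P below 0.05, black bars are list medians, and dotted lines mark a 2-fold change. The points spread farther from 0 after PKM2 knockdown.

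MicroRNA host transcripts, the long RNAs named for the microRNA they carry, are what DROSHA acts on and are polyadenylated in many cases. For those that were DEGs, the main mature microRNA of each locus is given from RefSeq (5′ to 3′, seed in capitals). No 2 of the following 6 share a seed.
hsa-miR-210-3p: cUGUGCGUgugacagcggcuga
hsa-miR-146a-5p: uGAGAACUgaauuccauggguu
hsa-miR-31-5p: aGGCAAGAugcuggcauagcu
hsa-miR-503-5p: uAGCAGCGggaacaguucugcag
hsa-miR-600: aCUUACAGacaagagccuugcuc
hsa-miR-137-3p: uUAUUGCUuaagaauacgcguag
The RefSeq positions on GRCh38.p14 are chr11:568112-568133 for miR-210-3p, in an intron of MIR210HG, and chr5:160485372-160485393 for miR-146a-5p, in an exon of MIR3142HG. They are chr9:21512158-21512178 for miR-31-5p, chrX:134546371-134546393 for miR-503-5p, chr9:123111561-123111583 for miR-600 and chr1:98046091-98046113 for miR-137-3p. All but miR-146a-5p are on the minus strand. Of the last 4, miR-600 and miR-137-3p lie in exons and miR-31-5p and miR-503-5p in introns of their host genes. The mature RNAs were not measured, so only the host transcripts have values.

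After PKM2 knockdown 3 of 22 tested host transcripts rose and 8 fell, and 6 of those that fell were DEGs, where 68.4% of all genes were called and 13.8% were lowered DEGs. MIR210HG, among these DEGs, was at 6.68, 7.13 and 8.25 TPM in NC and 0.35, 0.46 and 0.06 TPM after knockdown. Its log2 fold change was -3.82 (SE 0.38, adjusted P = 2.61e-06, edgeR). It passed the count filter through the NC group, where it was high (3.97 CPM, against 0.279 CPM after knockdown). Its call is therefore no support for a change, and the size of its fall rests on knockdown values near the floor. MIR3142HG went from 8.82, 14.00 and 9.87 TPM to 3.06, 2.93 and 2.71 TPM (-1.78, SE 0.16). MIR31HG (-1.55, SE 0.26), MIR503HG (-1.15, SE 0.21), MIR600HG (-1.11, SE 0.19) and MIR137HG (-1.03, SE 0.12) were also lower in every knockdown library than in every NC library. MIR31HG had at most 65 counts in a library and was listed at 0 in all 6 libraries of the NONO experiment. The sources used here do not say whether both tables rest on the same annotation, and the deposited length differed for 1565 of the 60558 genes they share, so this 0 is not read as a level. The 3 that rose, named after their values were seen, were MIRLET7A1HG (0.65, SE 0.20), MIR4435-2HG (0.42, SE 0.05) and MIR22HG (0.31, SE 0.09).

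After NONO knockdown 2 of 21 tested host transcripts were called, both lower, where 33.4% of all genes were called. They were MIR100HG (-0.55, SE 0.14) and MIR4435-2HG (-0.23, SE 0.05), both named after their values were seen. MIR100HG had 28.43, 44.83 and 42.10 TPM in NC and 24.96, 24.35 and 24.77 TPM after knockdown, and fell after PKM2 knockdown as well (-0.43, SE 0.06). MIR210HG did not pass after NONO knockdown, with 3.60, 18.06 and 12.13 TPM in NC and 9.88, 13.30 and 11.08 TPM after knockdown (0.03, SE 0.28, adjusted P = 0.947, edgeR). MIR222HG, also chosen after its values were seen, fell after PKM2 knockdown (-0.68, SE 0.12), and 2 mature microRNAs of its locus share 1 seed, shown in capitals.
hsa-miR-221-3p: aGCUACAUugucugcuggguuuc
hsa-miR-222-3p: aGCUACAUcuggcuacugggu
They lie in introns of MIR222HG at chrX:45746180-45746202 and chrX:45747036-45747056, on the minus strand. Whether the levels of these 2 microRNAs moved was not measured.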

How the data were processed

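RNA-seq of 12 MDA-MB-231 libraries was analysed in 2 experiments, each with 3 NC and 3 knockdown libraries grouped by the sample labels. The authors deposited estimated counts and TPM values per gene and library, in 1 table for each knockdown. Column names are identical in both, and the table named the experiment. The submitters' processing notes name fastp, HISAT2, StringTie, RSEM, DESeq2, edgeR, limma and the build hg19, without roles. The deposited fold changes, P values and group means of TPM were not used, and 0 other columns with values per library were left out. The deposited gene length was used for the length trend.

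Estimated counts were rounded, filtered with filterByExpr and tested per experiment by quasi-likelihood in edgeR 4.0.16 under R 4.3.3 (TMM, Benjamini-Hochberg over all genes tested). Differences between knockdowns were tested as an interaction over the 12 libraries. Standard errors come from the F statistic. Alternatives were DESeq2 1.42.0, limma 3.58.1 on log2(TPM + 1) or log2(TPM + 0.1), other filters, normalization and cutoffs, a replicate block, each library left out, and length and GC trends taken out in 20 bins. Replicates differed by a chi-square per degree of freedom of 2.33 to 12.3, so none was deposited again. Replicate numbers did not pair samples (correlations of same-numbered libraries -0.0655 to 0.0365). The fit was also run on simulated counts, with dispersions taken from the main fit.

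The genes and lists were chosen with earlier results of these data known. Named genes are the 10 genes, NONO, PKM, listed genes that were DEGs or had the 2 largest rises or falls among called genes of a list, and DEGs among host transcripts. Coordinates are from GENCODE 29 and RefSeq on GRCh38, which the files do not use, and serve for location only. Protein sequences and siRNA sequences were not used here.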

Additional observations from a re-analysis of the deposited data

Results flagged for a closer look

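The change of 6 genes differed between the knockdowns in the test of the difference itself (edgeR interaction over 12 libraries, log2 fold change after PKM2 knockdown minus that after NONO knockdown). The difference was -1.59 for DROSHA, 0.5 for DGCR8, -0.6 for AGO1, 0.96 for AGO2, -0.52 for AGO4 and 2.22 for TNRC6C. These values and calls are by counts, and the difference was not tested on TPM. For AGO4 the log2 ratio of mean TPM was -1.07 after NONO knockdown and -1.0 after PKM2 knockdown, without overlap of groups in either experiment. DROSHA, AGO2 and TNRC6C were called in both experiments in opposite directions, whereas DGCR8, AGO1 and AGO4 were called after PKM2 knockdown only. Leaving out any 1 library kept each of the 6 differences past the test. The experiments were separate, with their own NC groups and library depths, and a batch between them cannot be told apart from the knockdowns. Groups of 3 libraries were too small for a test of single outlying samples. The libraries said above to stand apart were described by their distance from their replicates only.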

How the results depend on the processing

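Of 462 single-gene values under alternative settings, 402 were counted as kept, 37 lost a call, 5 gained one, 10 reversed and 8 moved. Kept meant the same direction and the same side of the threshold. Values with a length or GC trend taken out have no P value. They counted as kept within the SD between libraries of a group from the main value, and as moved beyond it. Reversed values all concern small changes after NONO knockdown. With limma on TPM, DGCR8 was at -0.03, AGO2 at 0.01 and AGO4 at -0.78 (pseudocount 1, with or without filter) or -0.97 (pseudocount 0.1), and with 1 library left out AGO4 ranged from -0.01 (without NC replicate 1) to 0.22. The replicate block left 0 genes raised and 4 lowered of the 10 after NONO knockdown, with the calls of DROSHA and AGO3 lost, and changed no other call among the 10 genes. Leaving out 1 library gave 0 to 2 raised and 3 to 5 lowered after NONO knockdown, and the 10 calls after PKM2 knockdown held each time.

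After NONO knockdown, limma on TPM (pseudocount 1, 0.1, and no filter) gave 0, 0 and 0 of the 10 genes raised and 2, 2 and 1 lowered, and with a pseudocount of 1 no lowered DEG (0). An adjusted P below 0.01 gave 0 raised and 3 lowered, and a fold change of at least 1.5 gave 0 and 1. Listed genes raised were 11, 11 and 5 with limma and 0 at 1.5-fold, and those lowered were 4, 5 and 4 and 1. Leaving out 1 library gave 0 to 1 raised DEGs among listed genes. Host transcripts raised were 0 to 1 with 1 library left out, those lowered were 1 with limma without filter, 1 at an adjusted P below 0.01 and 0 at 1.5-fold, and a pseudocount of 0.1 gave 1 lowered DEG.

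After PKM2 knockdown, limma without filter gave 1 of the 10 genes raised and 3 lowered, and 1.5-fold gave 1 lowered. Listed genes at 1.5-fold were 7 raised and 16 lowered, and limma gave 0 raised DEGs in all 3 settings. Host transcripts raised were 5 without the count filter, 1 at an adjusted P below 0.01, 1 at 1.5-fold and 1 to 5 with 1 library left out. Raised DEGs among them were 2 without the count filter, 1 with a pseudocount of 0.1 and 0 to 2 with 1 library left out. The causes were not tested. TNRC6C, with at most 100.22 estimated counts in a NONO knockdown library, and MIR31HG, with at most 65 in a library, rest on few counts.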
